A study of Mus musculus with 4 samples.

Results

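The genes described here are 8 basic helix-loop-helix (bHLH) transcription factors of nerve cell formation: the neurogenins Neurog1 and Neurog2, the NeuroD factors Neurod1 and Neurod4, Olig2 and Olig3, and the Nhlh factors Nhlh1 and Nhlh2. They were picked by symbol from the 25209 genes in the count tables, and all 8 had a row in every library. They were measured by droplet single-cell RNA-seq in day 6 embryoid bodies (EBs), which are balls of differentiating cells that mouse embryonic stem cells (ESCs) form in culture. The LSD1 KO group held 2 libraries of EBs from V6.5 ESCs that lack the promoter and first exon of Lsd1 (Kdm1a), and the WT group held 2 libraries of EBs from unedited V6.5 ESCs. LSD1 is a histone demethylase and a subunit of co-repressor complexes. Both groups were grown as hanging drops for 6 days in the same medium with no other treatment, and KO lines are clones picked after CRISPR editing. The study calls the replicates biological and names separate clones for its bulk RNA-seq, and for these single-cell libraries the clones are not given in the sources used here. The comparison asked whether loss of LSD1 changed these genes in EBs, and in which cells their transcripts were found.

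bHLH factors bind DNA as dimers at the E-box, a short motif with the letters CANNTG. Proneural factors such as Neurog1 and Neurog2 start neurogenesis in progenitors, mostly as partners of the broadly expressed E proteins, and switch on Notch ligands in the same cells. Neurod1 and Neurod4 act after them in cells that turn into neurons, and Neurod1 also works in endocrine cells of the pancreas. Nhlh1 and Nhlh2 mark young neurons that have left the cell cycle. Olig2 specifies the ventral progenitors that make motor neurons and then oligodendrocytes, Olig3 acts in dorsal progenitors of the neural tube, and Id and Hes proteins hold proneural factors back.

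The 2 members with more than a few transcripts were Neurod1 and Olig2, so their promoters are shown, as RefSeq gives them on GRCm38.p6 from 250 bases before to 50 bases after the gene's start. Capitals mark any CANNTG (the E-box, which reads the same on both strands) and any TATAAA or its reverse complement TTTATA (a strict form of the TATA box).
Neurod1, chr2:79456587-79456886, minus strand: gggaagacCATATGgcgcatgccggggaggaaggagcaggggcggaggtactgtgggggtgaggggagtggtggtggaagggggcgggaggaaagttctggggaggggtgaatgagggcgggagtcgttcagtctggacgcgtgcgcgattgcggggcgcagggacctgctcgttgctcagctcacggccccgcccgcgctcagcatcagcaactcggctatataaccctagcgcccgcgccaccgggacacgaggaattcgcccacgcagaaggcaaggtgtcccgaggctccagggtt
Olig2, chr16:91225300-91225599, plus strand: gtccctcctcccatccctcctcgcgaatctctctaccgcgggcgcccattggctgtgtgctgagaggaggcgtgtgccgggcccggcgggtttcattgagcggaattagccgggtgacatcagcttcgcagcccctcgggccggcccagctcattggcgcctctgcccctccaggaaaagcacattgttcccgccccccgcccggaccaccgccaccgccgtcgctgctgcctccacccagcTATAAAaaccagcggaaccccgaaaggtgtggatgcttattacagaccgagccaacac
The Neurod1 window held 1 E-box, CATATG, which began 242 bases before the start, and no TATAAA or TTTATA. It does hold the similar stretch tatataa, which these letters leave unmarked. The Olig2 window held no E-box and 1 TATAAA, which began 8 bases before the start. Whether either stretch works as a TATA box was not tested. Both were rich in CpG, with 26 and 25 CpGs and an observed to expected ratio of 0.837 for Neurod1 and 0.815 for Olig2, against a median of 0.384 over 32851 promoter windows of this length. An E-box was present in 72.3% of those windows and a TATAAA or TTTATA in 13.6%. Among the other members the first listed window had 4 E-boxes in Nhlh2, 2 in Nhlh1, 1 each in Neurog1 and Olig3, and 0 in Neurog2 and Neurod4. All 8 members matched the promoter table.

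In the GENCODE M1 annotation of mm9, the build of the count tables, Neurod1 lies at chr2:79292678-79296908 on the minus strand, within the longer gene Cerkl (chr2:79170700-79296942) on the same strand. The antisense gene Gm17325 overlaps it too. How reads shared by Neurod1 and Cerkl were assigned is not given in the sources used here, so Neurod1 counts carry that uncertainty. Cerkl itself had 1.97 and 2.16 CPM in LSD1 KO EBs and 1.48 and 1.68 CPM in WT EBs, a log2 fold change of 0.38 ± 0.22 (SE) that did not pass the test (edgeR, adjusted p = 0.211). Olig2 (chr16:91225795-91228922, plus strand) overlaps no annotated gene.

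The libraries were of similar size, with 72285943 to 75406512 unique molecular identifiers (UMIs) each. A barcode counted as a cell from 500 UMIs and 500 detected genes upward, which gave 5693 and 3045 cells in LSD1 KO and 4393 and 6828 in WT, and cells of the second LSD1 KO library were the deepest (median 20304 UMIs, against 9211 to 11698 in the other libraries). Kdm1a fell to 1.10 and 0.81 CPM in LSD1 KO EBs, against 221 and 246 CPM in WT EBs, so the target gene followed the labels. Pairs of libraries shared 3 to 15 barcodes. The 2 libraries of each genotype were further apart than counting noise alone gives (chi-square over its degrees of freedom 27.8 for LSD1 KO and 63.1 for WT). Levels are UMIs scaled to counts per 1e6 UMIs (CPM), over all kept cells of a library with TMM scaling unless a cluster is named.

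Neurod1 was the member with the most transcripts. It had 405 and 513 UMIs in the LSD1 KO libraries, against 38 and 76 UMIs in the WT libraries. Olig2 followed with 193 and 177 UMIs in LSD1 KO, against 10 and 32 in WT. For both genes each LSD1 KO library lay above each WT library. Groups of 2 libraries separate easily, as Nhlh1 did with 2 and 2 UMIs in LSD1 KO and 3 and 3 in WT. The share of all genes that separate was not taken.

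**Figure D1:**
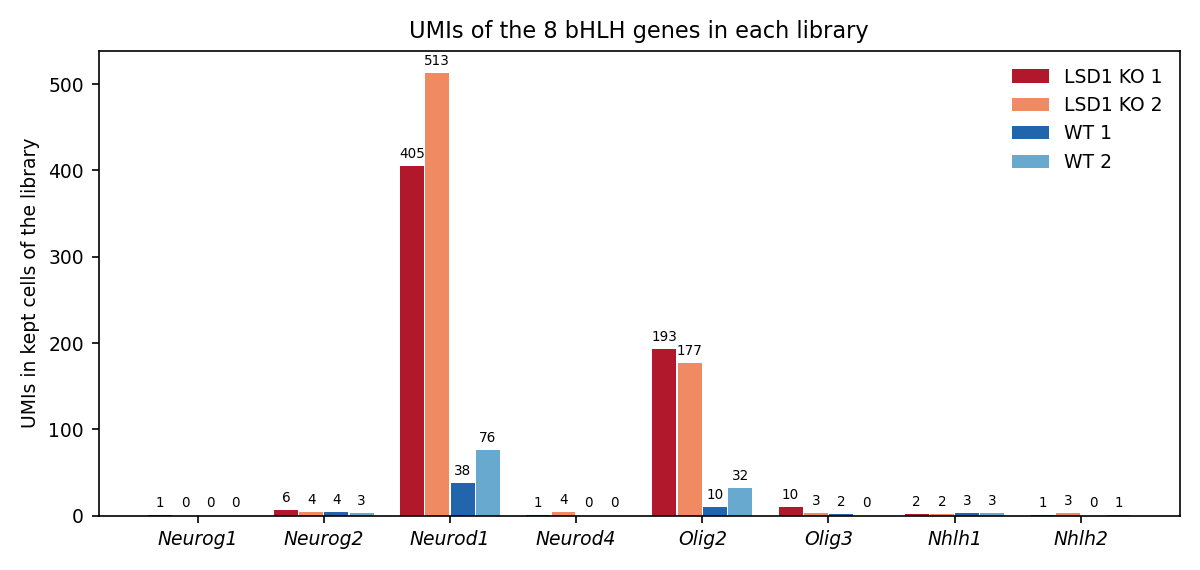
UMIs (vertical axis, printed above each bar) of the 8 bHLH genes (horizontal axis) in the kept cells of each library, LSD1 KO in red shades and WT in blue shades. Neurod1 and Olig2 carry nearly all UMIs, and the other 6 genes stay at 10 or fewer UMIs in every library.

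The remaining 6 members were at the edge of detection. The proneural starter Neurog2 had 6 and 4 UMIs in LSD1 KO libraries and 4 and 3 in WT libraries, and Neurog1 had 1 and 0 UMIs in LSD1 KO and 0 in both WT libraries. Neurod4 had 1 and 4 UMIs in LSD1 KO and 0 in both WT libraries. These counts give no fold, since a count of 0 still allows a level of up to 0.0473 CPM in the first WT library and 0.0437 CPM in the second (3 UMIs of the library's kept UMIs, counting error only). Olig3 had 10 and 3 UMIs in LSD1 KO against 2 and 0 in WT. Nhlh1 had 2 and 2 UMIs in LSD1 KO and 3 and 3 in WT, and Nhlh2 had 1 and 3 in LSD1 KO and 0 and 1 in WT. None of the 6 passed the filter on low counts. When the filter was dropped, the log2 fold change was 2.44 ± 1.16 for Olig3 (adjusted p = 0.142), 0.39 ± 0.63 for Neurog2 (adjusted p = 0.654) and -0.66 ± 0.75 for Nhlh1 (adjusted p = 0.541; edgeR), so no difference was detectable for them at this depth.

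Both members that could be tested were higher in LSD1 KO EBs. Neurod1 had 5.73 and 7.84 CPM in LSD1 KO EBs and 0.611 and 1.19 CPM in WT EBs (means 6.785 ± 1.495 and 0.902 ± 0.412, SD, n = 2 each). The fitted fold of Neurod1 was 7.50 (log2 2.91 ± 0.37, SE, edgeR quasi-likelihood test, adjusted p = 0.00314). Olig2 had 2.73 and 2.71 CPM in LSD1 KO EBs and 0.161 and 0.502 CPM in WT EBs (means 2.72 ± 0.0167 and 0.331 ± 0.241). Its fitted fold was 8.13 (log2 3.02 ± 0.49, adjusted p = 0.00637). The 2 LSD1 KO libraries nearly coincided for Olig2. For Neurod1 the LSD1 KO libraries lay further apart in CPM, and the WT libraries further apart relative to their mean.

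These 2 of 2 calls stand against a broad change between the genotypes. Of 16953 genes tested, 44.2% were called at an adjusted p under 0.05, 22.6% higher and 21.6% lower in LSD1 KO (3839 and 3661 genes). Scaling by library totals in place of TMM turned that split into 4839 higher and 2583 lower. A call in itself was therefore common, while the size of the change was less so: 96.3% of tested genes had a lower log2 fold change than Neurod1 and 96.7% a lower one than Olig2. Both were at low levels, with 33.8% of tested genes at a lower mean CPM than Neurod1 and 23.3% at a lower one than Olig2. Their rank among genes of like level was not taken. Without the first WT library the log2 fold change was 2.51 for Neurod1 and 2.43 for Olig2, and without the second it was 3.47 and 4.07. Since each library is a sum over all its cells, more cells with a transcript and more transcript per cell cannot be told apart in these values.

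The share of cells with a transcript moved in the same direction. At least 1 UMI of any of the 8 genes was found in 8.91% and 16.5% of cells in LSD1 KO libraries and in 0.865% and 1.29% in WT libraries, and Neurod1 alone in 5.66% and 11.9% in LSD1 KO, against 0.433% and 0.747% in WT. Because deeper cells show more genes, every cell was thinned to 5000 UMIs, and 869 to 1330 shallower cells were left out per library. The shares for any member were then 4.59% and 5.27% in LSD1 KO and 0.435% and 0.655% in WT, a difference of 4.38 percentage points. The exact permutation test over libraries gave p = 0.3333 (two-sided), which is the smallest value 2 against 2 libraries can give. Thinned shares were 2.93% and 3.795% in LSD1 KO and 0.243% and 0.378% in WT for Neurod1, and 1.51% and 1.45% in LSD1 KO and 0.107% and 0.216% in WT for Olig2. The gap between the 2 LSD1 KO libraries thus shrank after thinning and that between genotypes did not close.

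**Figure D2:**
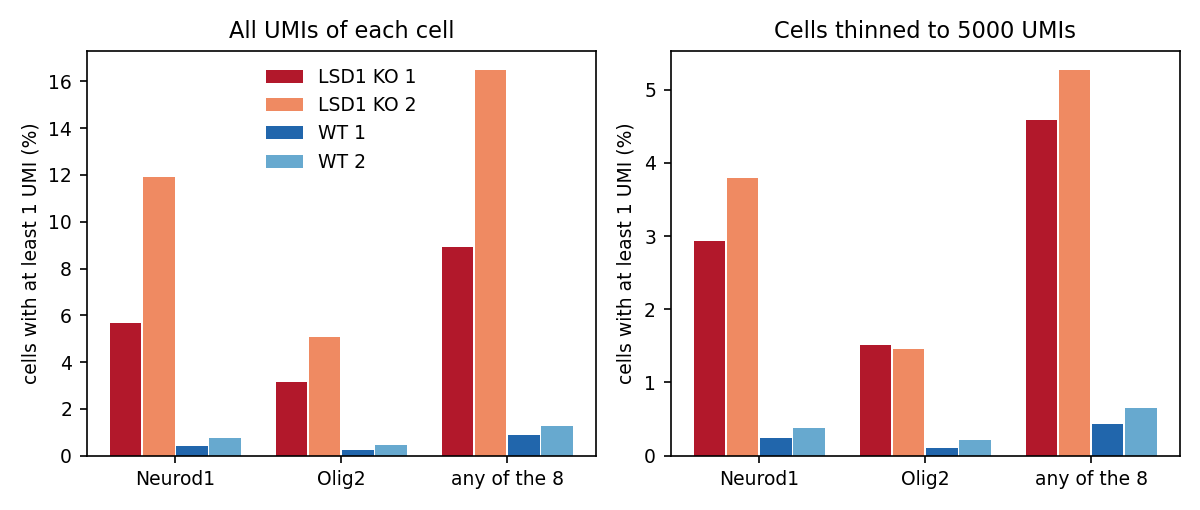
Share of kept cells with at least 1 UMI (vertical axis, percent) of Neurod1, Olig2 or any of the 8 genes in each library, LSD1 KO in red shades and WT in blue shades, with all UMIs (left) and after thinning each cell to 5000 UMIs (right). For any member the thinned shares were 4.59% and 5.27% in LSD1 KO and 0.435% and 0.655% in WT.

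Most positive cells held a single UMI. In LSD1 KO EBs 685 cells held a Neurod1 UMI, 146 held 2 or more and 48 held 3 or more, and in WT EBs these numbers were 70, 19 and 8. The highest count in a cell was 6 and 8 UMIs in the LSD1 KO libraries and 11 and 6 in the WT libraries. A few WT cells carried much of the WT signal: in the LSD1 KO libraries the cells with 3 or more UMIs held 14.6% and 24.2% of the Neurod1 UMIs, while in the first WT library 3 such cells held 19 of 38 UMIs and in the second 5 held 22 of 76. Olig2 was found in 335 LSD1 KO cells and 40 WT cells, with 2 or more UMIs in 31 and 2 of them.

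To find the host cells, the cells of all libraries were clustered together without the 8 genes, and clusters were named from marker genes. The 2 genotypes shared few clusters, so levels by cluster (CPM of the UMIs of that cluster in that library) are a description with exact 95% Poisson intervals, which cover counting error only, and no test. The largest LSD1 KO cluster (2747 and 1470 cells in LSD1 KO, 7 and 1 in WT) had Tagln, Pim2, Nefm and Ebf1 among its leading genes. It had 9 of 14 neuron markers raised, among them Tubb3, Elavl3 and Stmn2, beside 4 of 12 ESC markers, and is called neuron-like on the count of markers. A second LSD1 KO cluster, led by Dppa5a, Dppa2, Dnmt3l, Tdh and Hormad1, had 10 of 12 ESC markers raised and is called ESC-like (438 and 502 cells in LSD1 KO, 2 and 2 in WT). The border between them is not firm: of the Neurod1 UMIs of LSD1 KO libraries, 47.3% lay in neuron-like and 30.8% in ESC-like cells on average, against 18.4% and 57.6% with finer clusters (resolution 0.8) and 81.2% and 0.0975% with coarser ones (resolution 0.2). Of the Olig2 UMIs of LSD1 KO libraries, 75.0% lay in neuron-like and 13.4% in ESC-like cells on average. With the finer clusters these shares were 17.0% and 68.4%, and with the coarser ones 96.0% and 0%.

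Neurod1 was found across LSD1 KO clusters at unequal levels. It was at 5.04 and 5.23 CPM in the 2 LSD1 KO libraries in the Tagln Nefm cluster, with overlapping intervals (4.38 to 5.77 and 4.56 to 5.96), and this cluster held 430 of the 918 LSD1 KO UMIs. In the Dppa5a Dppa2 cluster it was at 10.3 (7.94 to 13.1) and 15.3 CPM (13.4 to 17.4), so the 2 libraries differed there beyond counting error. The highest level was in an unnamed cluster led by Bhlhe41, Bend7, Crebrf, Dscaml1 and Trim63, with 35.7 (28.7 to 43.9) and 25.8 CPM (17.6 to 36.4). Among the named LSD1 KO clusters the lowest level was in primitive streak-like cells led by Mixl1 and Mesp1, with 1.49 and 1.86 CPM. These were 1014 and 76 cells, so values of this cluster pooled over both LSD1 KO libraries rest mostly on the first. Thinned shares of cells with a Neurod1 UMI were 2.49% in the Tagln Nefm cluster, 5.73% in the Dppa5a Dppa2 cluster and 13.6% in the Bhlhe41 Trim63 cluster, against 0.677% in these primitive streak-like cells, a cell type outside the nervous system. Free RNA was at 6.34 and 5.21 CPM for Neurod1 in barcodes under 100 UMIs of the LSD1 KO libraries, and its part in the levels by cluster was not tested. A cluster of shallow cells led by Camk1d and Platr22 held 34 further UMIs (12.2 and 10.1 CPM), and another led by Camk1d and Lars2 held 9.

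In WT EBs Neurod1 was found mainly in neural progenitor-like cells led by Shh, Il1rapl1, Kirrel3, Six3 and Slit2 (421 and 1358 cells, none from LSD1 KO). They held 70 of the 114 WT UMIs, at 2.79 and 3.42 CPM. A mesoderm-like cluster led by Ptgds, Col23a1, Lama1, P3h2 and Foxc2 held 20 UMIs (2.31 and 1.64 CPM). In contrast, the other mesoderm-like cluster, led by Hand1 and Tnnt2, had 0 UMIs in 1882 cells, and endoderm-like cells had 4 UMIs in 3406 cells. Of the 5 UMIs in endothelial-like cells all lay in 1 cell.

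Olig2 followed another order in these clusters (resolution 0.4), and the class that held most of its UMIs changed with the resolution, as given above. In LSD1 KO 277 of its 370 UMIs lay in the Tagln Nefm cluster, where it was at 3.37 and 3.25 CPM (2.83 to 3.98 and 2.73 to 3.84), as did 10 of the 13 Olig3 UMIs. It was at 2.80 (1.66 to 4.43) and 2.06 CPM (1.40 to 2.92) in the Dppa5a Dppa2 cluster and at 1.69 and 1.86 CPM in the primitive streak-like cells, and in the first LSD1 KO library the interval of the primitive streak-like cells (1.10 to 2.50) lay below that of the Tagln Nefm cluster. In the second, with 76 such cells and 4 Olig2 UMIs, the intervals overlapped (0.507 to 4.77). Thinned shares were 1.72% in the Tagln Nefm cluster and 1.38% in the Dppa5a Dppa2 cluster, against 0.915% in primitive streak-like cells. Free RNA was at 2.93 and 3.37 CPM for Olig2 in the LSD1 KO libraries, close to its level in the Tagln Nefm cluster. The shallow clusters led by Camk1d held 9 and 3 Olig2 UMIs, at 4.28 and 1.45 CPM in the first of them and 7.20 and 2.00 CPM in the second, with intervals that include the Tagln Nefm levels. In the Bhlhe41 Trim63 cluster, where Neurod1 was highest, Olig2 had only 3 UMIs in 499 LSD1 KO cells. In WT, 26 of 42 UMIs lay in neural progenitor-like cells (1.03 and 1.28 CPM). A further 9 lay in 210 cells of a small ESC-like cluster led by Dppa3 and Klf2, which also had 6 germ cell markers raised and in which Olig2 was at 3.66 CPM (1.68 to 6.96).

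**Figure D3:**
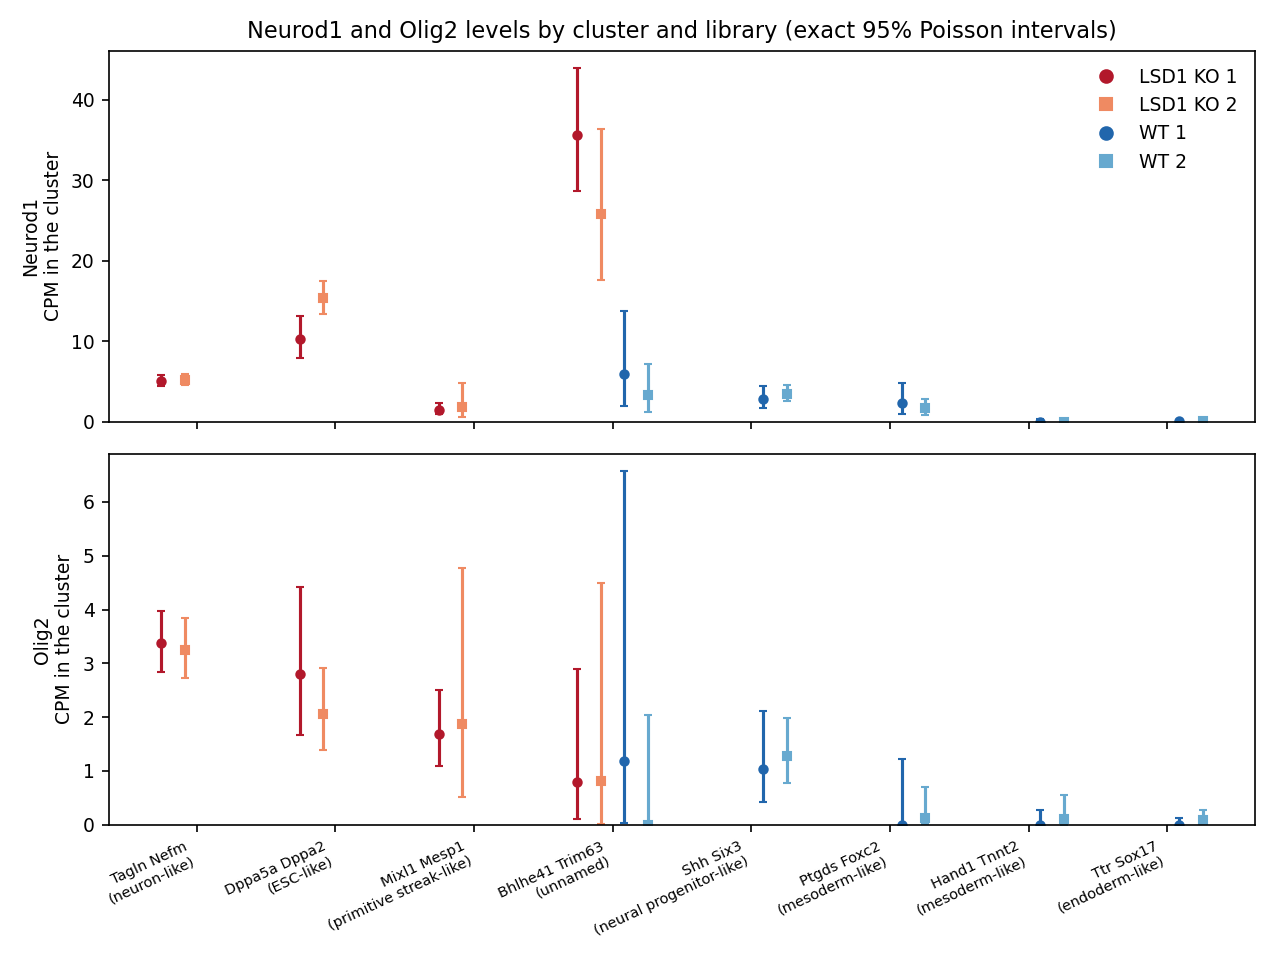
Level of Neurod1 (top) and Olig2 (bottom) in CPM of the cluster's UMIs (vertical axis) in 8 clusters (horizontal axis, leading genes and class), with LSD1 KO libraries in red shades left of WT libraries in blue shades and exact 95% Poisson intervals as bars. Only libraries with at least 50 cells in a cluster are drawn. Neurod1 peaks at 35.7 and 25.8 CPM in LSD1 KO cells of the Bhlhe41 Trim63 cluster, while Olig2 is at 3.37 and 3.25 CPM in the Tagln Nefm cluster, and its interval there overlaps that of the Dppa5a Dppa2 cluster.

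The Bhlhe41 Trim63 cluster held enough cells of every library for a test within it (393 and 106 LSD1 KO cells, 81 and 259 WT cells), with the choice made after its values had been seen. Neurod1 had 89 and 32 UMIs there in LSD1 KO and 5 and 6 in WT (35.7 and 25.8 CPM against 5.89 and 3.32 CPM). It was higher in LSD1 KO by a log2 fold change of 2.62 ± 0.42 (SE; edgeR, adjusted p = 3.65e-05), and 10.6% of the 10088 genes tested in that cluster were called higher. Since the test was added after these values had been seen, its p-value is no independent support. The cluster had 0 raised markers of any class, and whether its LSD1 KO and WT cells are of the same cell type was not tested. The shallow cluster led by Camk1d and Platr22 gave 20 and 14 UMIs in LSD1 KO and 0 and 3 in WT, which did not pass the test (log2 0.63 ± 0.99, adjusted p = 0.794; 3.9% of 9625 genes called higher). That value was -1.21 without the first WT library and 6.66 without the second. The difference between the 2 clusters was not tested.

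The unequal distribution shows in the ratio of the 2 genes. In LSD1 KO there were 0.897 Neurod1 UMIs per Olig2 UMI in primitive streak-like cells, 1.55 in the Tagln Nefm cluster, 6.06 in the Dppa5a Dppa2 cluster and 40.3 in the Bhlhe41 Trim63 cluster. Barcodes under 100 UMIs, which hold free RNA, had 30 Neurod1 and 17 Olig2 UMIs in LSD1 KO, a ratio of 1.76. The ratio of the Tagln Nefm cluster was near that of the free RNA, and the part of free RNA in these ratios was not tested.

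Both genes were rarely seen in the same cell. In LSD1 KO libraries 12 and 27 cells held UMIs of both, and in WT libraries 0 cells did. Of 4393 and 6828 WT cells only 19 and 51 held Neurod1 and 10 and 30 held Olig2. These are too few for the 0 to tell the genotypes apart. Of the Neurod1-positive cells 3.73% and 7.44% held an Olig2 UMI in the 2 LSD1 KO libraries, against 3.16% and 5.09% of all cells of those libraries. By contrast, Olig1 UMIs were found in 13.3% and 24.5% of Olig2-positive LSD1 KO cells, against 6.75% and 8.64% of all cells. Positive cells were also deeper (median 13570 and 31035 UMIs for Neurod1, against 11402 and 20304 over all cells), and the part of depth in these shares was not tested.

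Cells with a UMI of either gene were then compared with all other cells of the same library, with no use of clusters. In LSD1 KO, 9 of 11 pluripotency genes were higher in Neurod1-positive cells in both libraries and 1 was lower in both. Dppa5a was at 421 and 800 CPM in Neurod1-positive LSD1 KO cells, against 205 and 463 CPM in the other cells, and Utf1 at 144 and 220 CPM against 89.4 and 161 CPM. Olig2-positive LSD1 KO cells went the other way for most of these genes: 7 of 11 were lower in both libraries and 4 were higher. Summed over the list, they had 1020 and 1264 CPM against 1020 and 1440 CPM in the others, so the sum hardly differed in the first library. For Neurod1-positive LSD1 KO cells the sums were 1307 and 1786 CPM, against 998 and 1341 CPM. Dppa5a was at 141 and 301 CPM in Olig2-positive cells against 224 and 547 CPM in the others, while Pou5f1, a core pluripotency factor, was at 124 and 121 CPM against 104 and 104 CPM. Neuronal genes differed little: 6 of 19 were higher and 7 lower in both libraries in Neurod1-positive cells, and 5 and 5 in Olig2-positive cells. Of 15 neural progenitor genes 2 were higher and 7 lower in both libraries in Neurod1-positive cells, and 4 and 4 in Olig2-positive cells. Tubb3, a neuronal tubulin, was at 43.7 and 35.2 CPM in Neurod1-positive LSD1 KO cells and 40.2 and 33.8 CPM in the others. These values describe cells within a library, and no test was made. The share of all genes that were higher or lower in positive cells was not taken, so these counts have no background.

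**Figure D4:**
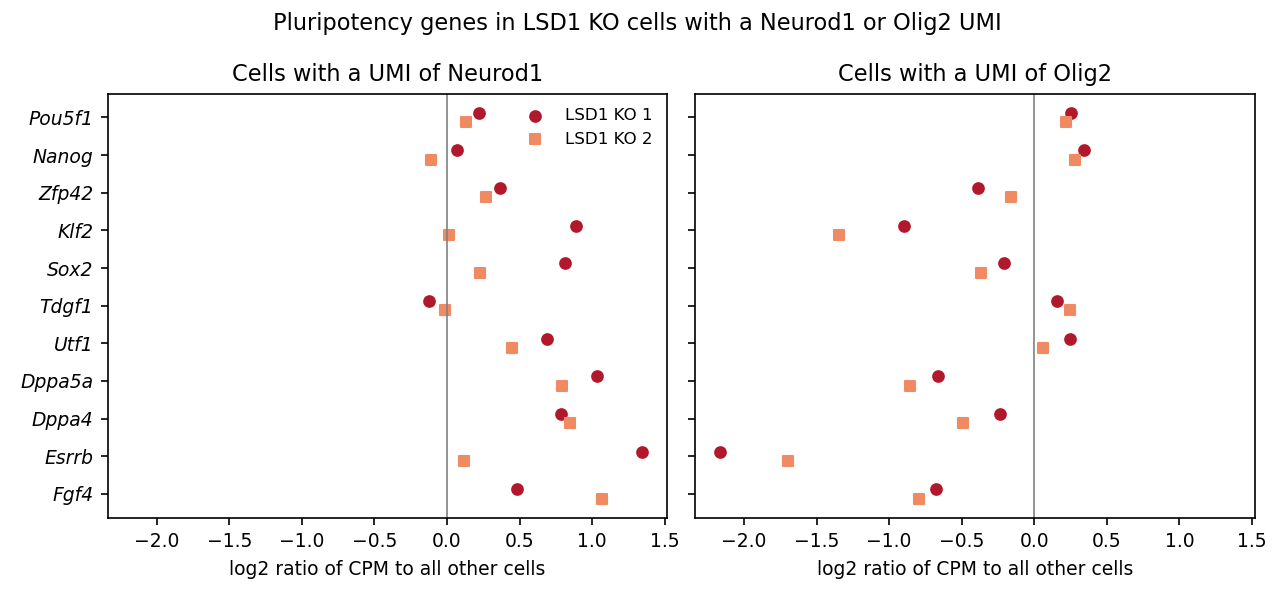
Log2 ratio (horizontal axis) of the CPM of 11 pluripotency genes (vertical axis) in LSD1 KO cells with a UMI of Neurod1 (left) or Olig2 (right) to the CPM in all other cells of the same library, with 1 point per LSD1 KO library. In Neurod1-positive cells 9 of 11 genes lie above 0 in both libraries, and in Olig2-positive cells 7 of 11 lie below 0 in both.

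In WT EBs the pattern was another one, and it rests on few cells. Each of the 11 pluripotency genes was higher in Olig2-positive WT cells than in other WT cells in both libraries, Dppa5a at 600.4 and 976 CPM against 18.8 and 130.3 CPM. These are averages over unlike cells: 24 of the Olig2-positive WT cells were neural progenitor-like and 9 lay in the ESC-like cluster led by Dppa3 and Klf2. Dppa5a was found in only 20% and 36.7% of the Olig2-positive WT cells and Zfp42 in 10% and 26.7%, against 100% and 73.3% for Sox2. The 10 and 30 Olig2-positive WT cells had 97.6 and 106 CPM of Pou5f1, against 4.18 and 11.0 CPM in other WT cells, and Sox2 was at 122 and 194 CPM against 18.2 and 34.2 CPM. Neuronal genes summed to 464 and 326 CPM in them, against 137 and 154 CPM. The 19 and 51 Neurod1-positive WT cells had 58.3 and 83.4 CPM of Sox2, a factor of pluripotent and neural progenitor cells, against 18.3 and 34.8 CPM, and 21.2 and 32.1 CPM of Pou5f1 against 4.38 and 11.4 CPM. Klf2 and Utf1 were also higher in both WT libraries, whereas Dppa5a was at 2.65 and 11.2 CPM in Neurod1-positive WT cells against 20.8 and 137 CPM in the others, and Dppa4 was at 0 in both against 1.98 and 5.75 CPM. The whole list summed to 193 and 240 CPM in Neurod1-positive WT cells, against 77.3 and 276 CPM in the others, so it was higher in 1 WT library and lower in the other.

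Across 18 cluster-by-genotype profiles with at least 50 cells, the genes most like Olig2 were Olig1, Nanog and Pdzd4 (Pearson r of log2(CPM + 1) 0.95, 0.94 and 0.93 over 14260 genes searched). For Neurod1 they were Taf7l, Cilp2 and Nell2 (r 0.92, 0.92 and 0.91). These profiles share libraries and depth, so the values are descriptive and carry no p. Olig1, which lies 44.2 kb from Olig2 on the same strand, had 458 and 331 UMIs in LSD1 KO libraries, against 25 and 68 in WT libraries. It rose by a log2 fold change of 2.97 ± 0.45 (adjusted p = 0.00540). Of the other 12 tested protein-coding genes that start within 500 kb of Olig2, 2 were higher (Urb1 0.71 and Gart 0.49, log2). Another 4 were lower (Il10rb -1.74, Ifngr2 -0.80, Ifnar2 -0.79 and Synj1 -0.65). Over all tested genes 22.6% were higher and 21.6% lower, and with 12 genes these counts are not read as a trait of the locus. Near Neurod1 the 2 genes tested, Cerkl and Itga4 (log2 -1.20, adjusted p = 0.138), were not called.

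The other bHLH genes listed as proneural or neuronal were mixed. Of 12 listed genes 5 passed the filter, and 3 were higher in LSD1 KO (Ascl4, Olig1 and Bhlhe22) and 1 was lower (Atoh8). Ascl4 had 38 and 30 UMIs in LSD1 KO and 1 and 4 in WT, so it passed the filter through its LSD1 KO counts. Bhlhe22, a factor of neurons, was at 1.92 and 1.16 CPM in LSD1 KO and 0.257 and 0.314 CPM in WT (log2 2.43 ± 0.38, adjusted p = 0.00579). The partners of these factors went down a little: of the 3 E proteins Tcf3 (log2 -0.38) and Tcf12 (-0.37) were lower, and Tcf4 was not called, with both calls lost under scaling by library totals and without either LSD1 KO library, and 1 call left without the first WT library. Among the inhibitors, 4 of 10 tested Id, Hes and Hey genes were lower (Id2, Id3, Hey1 and Hey2). No tested Hes gene was called: Hes1 (log2 -0.20, adjusted p = 0.225, edgeR), Hes5 (-0.23, adjusted p = 0.750) and Hes7 (0.92, adjusted p = 0.107). Hey2 had 0.650 and 0.673 CPM in LSD1 KO against 4.76 and 5.01 CPM in WT, Id2 fell by 1.40 and Id3 by 1.33 on the log2 scale.

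Notch ligands and genes known downstream of proneural factors, taken as 1 list, were again mixed, with 8 of 19 higher and 3 lower. Ebf1, a factor of early neurons and of B cells, was at 198 and 252 CPM in LSD1 KO and 14.0 and 23.3 CPM in WT (log2 3.59 ± 0.28, adjusted p = 0.000901), and Hes6 and Srrm4 were higher by 1.54 and 2.04. Gadd45g and Cbfa2t3 were lower by -1.98 and -3.21. The Notch ligands Jag2 (log2 1.53, adjusted p = 0.00205, edgeR) and Dll3 (0.61, adjusted p = 0.0342) were higher. The ligands Dll1 (log2 0.75, adjusted p = 0.2496), Dll4 (-0.70, adjusted p = 0.399) and Jag1 (-0.03, adjusted p = 0.913) were not called, nor was Insm1 (0.21, adjusted p = 0.761). Neuronal differentiation genes were the list with the most calls in 1 direction: 15 of 18 were higher, with a median log2 fold change of 2.47, against a median of -0.00088 over all genes. Myt1l was at 12.3 and 18.2 CPM in LSD1 KO against 0.209 and 0.235 CPM in WT, Nefm at 62.0 and 41.3 CPM against 2.81 and 2.78 CPM, and Tubb3 at 38.4 and 32.9 CPM against 4.87 and 6.17 CPM. Of 11 pluripotency genes 7 were also higher, with a median of 2.60, and Pou5f1 was at 99.4 and 101 CPM in LSD1 KO against 4.56 and 12.5 CPM in WT. The part of either list in the levels of Neurod1 and Olig2 was not tested.

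Most called genes of the ventral neural tube, the region in which Olig2 acts, were lower. Of 16 tested genes of the ventral neural tube, 9 were lower and 2 higher (Dbx2 and Pax6). Not called were Nkx6-1 (log2 0.41, adjusted p = 0.708, edgeR), Nkx6-2 (1.69, adjusted p = 0.0683), Gli2, Nkx2-9 and Lhx3. The ventral signal Shh had 0.0283 and 0.0153 CPM in LSD1 KO, against 13.1 and 23.7 CPM in WT. Its receptor Ptch1 and its effector Gli1 fell by 3.34 and 2.91 on the log2 scale. Shh and Ptch1 were leading genes of the neural progenitor-like cluster, which held 0 LSD1 KO cells. Foxa2, also lower, was a raised marker of endoderm-like cells, with 1 cell in each LSD1 KO library. The part of these clusters in the lower calls was not tested. Nkx2-2, a ventral and oligodendrocyte factor, was at 0.707 and 0.397 CPM against 2.33 and 5.05 CPM. Of 8 oligodendrocyte lineage genes 5 were lower, among them Sox9, Pdgfra and Mbp, and 2 higher (Cspg4 and Sox10), and the 2 higher calls were lost with DESeq2, with the replicate block and when any of the 4 libraries was left out. The lower calls were 3 without either WT library. Pdgfra was also a raised marker of both mesoderm-like clusters, which held 0 LSD1 KO cells. The part of those cells in its fall was not tested. In the list of the dorsal neural tube, where Olig3 acts, 4 of 10 were higher and 2 lower: Zic1 was at 3.13 and 2.86 CPM in LSD1 KO against 0.0482 and 0.0314 CPM in WT, and the roof plate factor Lmx1a was lower (log2 -4.74). The higher calls were 2 without the first WT or the first LSD1 KO library.

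Lists for other lineages in which these genes work were split. Among 15 neural progenitor genes 6 were higher and 3 lower: Nes and Sox3 rose by 2.505 and 3.003 on the log2 scale, and the forebrain factor Six3 fell by 4.07. With the replicate block 10 were higher. Of 11 placode and sensory ganglion genes 4 were higher and 5 lower, Foxd3 and Pou4f1 among the first and Eya2 and Isl1 among the second, with 2 higher without the first WT library. Of 6 tested endocrine genes 1 was higher (Pdx1, lost with DESeq2, without either LSD1 KO library and without the second WT library) and 4 were lower, Rfx6 by -3.19. The bHLH factors of mesoderm had 4 of 15 higher and 5 lower, and Hand2, a heart factor, was at 0.240 and 0.275 CPM in LSD1 KO against 35.7 and 33.3 CPM in WT. With no filter 7 were higher.

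**Figure D5:**
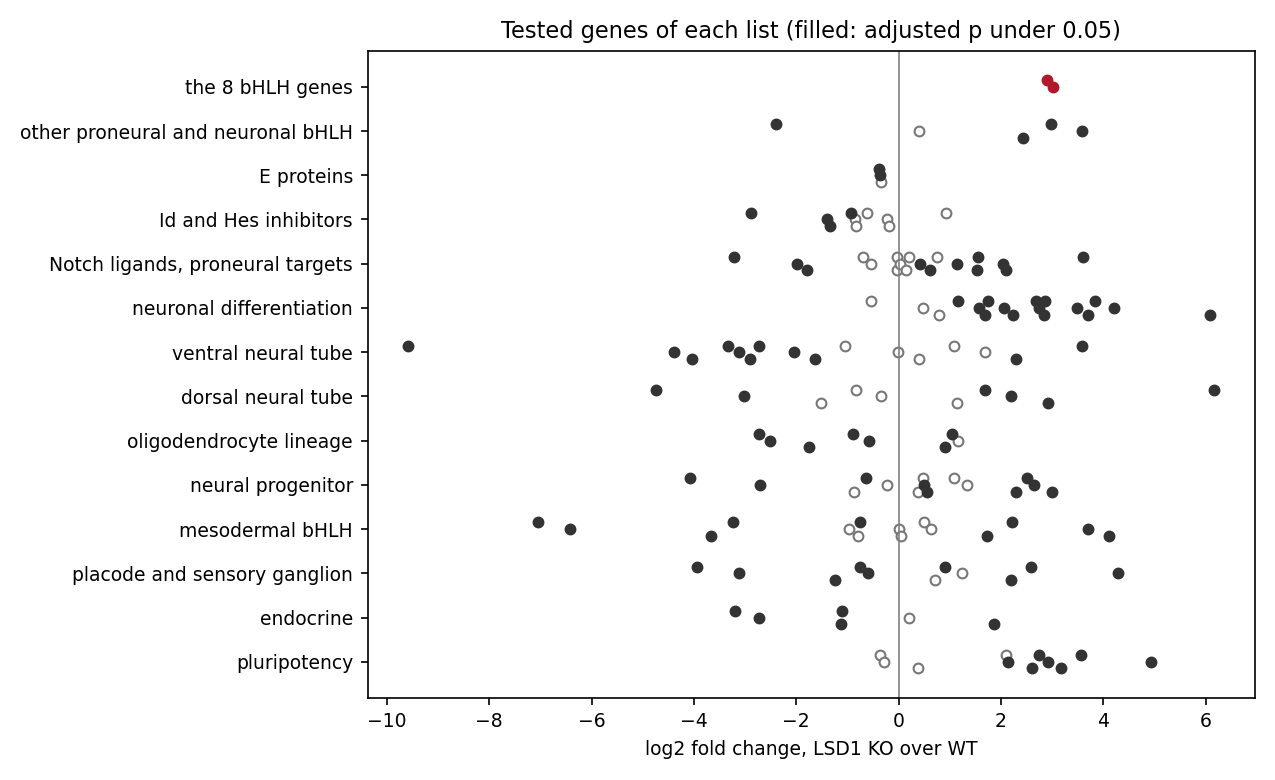
Log2 fold change of LSD1 KO over WT (horizontal axis) for each tested gene of the 8 bHLH genes and of 13 gene lists (vertical axis), with filled points for an adjusted p under 0.05 and open points otherwise. The 2 tested members lie at 2.91 and 3.02, and 15 of 18 neuronal differentiation genes are filled on the right.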

How the data were processed

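Cells of day 6 EBs (2 LSD1 KO and 2 WT libraries) were profiled with 10x 3′ chemistry. The authors ran Cell Ranger 7.1.0 with default parameters on mm9 (submitters' processing notes), and the deposited tables hold whole-number UMI counts, neither filtered to cells nor normalized. The annotation they used is not given in the sources used here. Barcodes with at least 500 UMIs and 500 genes and genes in at least 10 cells were kept, as in the study. Counts were summed per library and tested with edgeR 4.0.16 (quasi-likelihood test, TMM, filterByExpr, Benjamini-Hochberg adjustment over all genes tested) under R 4.3.3. DESeq2 1.42.0, other scalings, filters, a replicate block and leaving out each library were the alternatives. The fits were tested on simulated data.

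Cells were clustered in Seurat 5.3.0 (2000 variable genes per library, 30 principal components, resolution 0.4) without the 8 genes. A cluster took the class with the most markers raised at least 2-fold (5 CPM added) and detected in 10% of its cells or more, if 3 or more were raised. Scrublet's own threshold (scanpy 1.11.5) marked 0 or 1 cell per library and had not worked, so no doublets were removed, and removing the highest scores was an alternative. Free RNA was read from barcodes under 100 UMIs.

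The members and gene lists were chosen with earlier results of these data known. Named are all 8 members, up to 5 called genes per list by lowest adjusted p plus genes needed to say which moved, the 3 genes most like each member with at least 200 UMIs, and up to 5 leading genes of clusters. Some genes that this rule names are not reported here. p-values measure the spread between these libraries. Intervals cover counting error only. RefSeq promoters are on GRCm38.p6.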

Additional observations from a re-analysis of the deposited data

Results flagged for a closer look

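Barcodes under 100 UMIs, which hold free RNA and enter none of the comparisons, carried Neurod1 and Olig1 transcripts. Neurod1 was at 6.34 and 5.21 CPM there in the LSD1 KO libraries (13 and 17 UMIs), against 0 and 0.246 CPM in the WT libraries (0 and 1 UMI). Olig1, the neighbour of Olig2, was at 6.12 CPM in the second LSD1 KO library (20 UMIs), and at 3.90 CPM in the first (8 UMIs, 1.68 to 7.69), against 0 and 1.72 CPM in WT (0.693 to 3.55 in the second). The interval of the first LSD1 KO library overlaps that of the second WT library for Olig1. The other LSD1 KO values each had an exact 95% Poisson interval above those of both WT libraries, which covers counting error only.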

How the results depend on the processing

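The call of Neurod1 and Olig2 was made in all 11 alternatives, so 2 members were called in each, the replicate block included. Their log2 fold changes ran over 2.51 to 3.47 and 2.43 to 4.07, the ends given by leaving out the first and the second WT library, and over 2.83 to 3.05 and 2.96 to 3.17 in the other alternatives. Over all genes 7500 were called, against 4999 to 6666 when a library was left out, the lowest without the second LSD1 KO library, 8097 with the replicate block and 7384 with DESeq2. Scaling by library totals moved the median of all genes by 0.13 (log2). Same-numbered replicates deviated together only weakly (r = 0.157 for both numbers), and the numbers do not establish pairs. The share of cells with any member differed by 4.05 to 4.72 points when a library was left out, and by 0.996 points at 1000 UMIs and 11.6 points with no thinning. Within the Bhlhe41 Trim63 cluster the Neurod1 log2 fold change was 2.48 with the replicate block and 2.18 to 2.91 without a library in turn, all called. Only the classes of LSD1 KO host cells moved strongly with the resolution of the clusters, for Olig2 as for Neurod1, as given above. The 6 scarce members are limited by depth, with 17 or fewer UMIs each over all 4 libraries.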
